A study of Canis lupus familiaris with 17 samples.

Results

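The genes followed here encode the MHC class II antigen presentation machinery of canine blood leukocytes and the co-stimulatory ligands that act beside it. They are DLA-DRA, DLA-DOA, DLA-DMA, DLA-DMB, CD74, CIITA, CD86 and CD80, taken by symbol from the 20257 genes counted in each library. A row was found for 7 of the 8, and DLA-DMB, which has none under that symbol, was not analysed here. The libraries came from 17 client-owned dogs of several breeds, 7 healthy and 10 with osteosarcoma (OS), a malignant tumor of bone, and the labels give every dog the genotype Wt and the cells as PBMC. Dogs with OS carried a primary tumor, had not been treated, were bled before amputation and covered a wider range of ages than the healthy dogs. Leukocytes were collected from the interface of a density gradient, which leaves out most neutrophils, and single cells were captured with the 10x Genomics 3′ v3.1 chemistry, 1 library per dog. Transcripts were counted by unique molecular identifiers (UMIs) in each cell, and each dog counts as 1 replicate.

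MHC class II molecules are heterodimers on the cell surface that show peptides from ingested material to CD4 T cells. Their chains assemble in the endoplasmic reticulum with the invariant chain, encoded by CD74, which blocks the groove until the complex reaches an acidic compartment. There the DM heterodimer (DLA-DMA with DLA-DMB) exchanges the remaining fragment of the invariant chain for antigenic peptide, and the DO heterodimer, of which DLA-DOA is the alpha chain, restrains DM. Transcription of all these genes depends on CIITA, the class II transactivator. CD86 and CD80 bind CD28 and CTLA4 on T cells and give the second signal of T cell activation. B cells, dendritic cells and monocytes are the classical bearers of class II in blood, and canine T cells, unlike those of mice, are known to carry it as well. Low class II is commonly used to recognise monocytic myeloid-derived suppressor cells (M-MDSC), the suppressive monocyte-like cells that circulate in tumor-bearing hosts.

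In the RefSeq annotation of the later dog assembly UU_Cfam_GSD_1.0, DLA-DRA (ENSCAFG00000000803 in the files) lies on chromosome 12 between BTNL2 and HLA-DRB1. DLA-DMA (ENSCAFG00000000848) and DLA-DOA (ENSCAFG00000000896) lie on the same chromosome on either side of BRD2, and DLA-DMB is the next gene beyond DLA-DMA. CD74 (ENSCAFG00000018101) is on chromosome 4 beside RPS14, and CIITA (ENSCAFG00000018931) on chromosome 6 between DEXI and TVP23A. CD86 (ENSCAFG00000011751) and CD80 (ENSCAFG00000010997) are both on chromosome 33. Counting used CanFam3.1, so no positions from the later assembly are given.

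Libraries held 1332 to 7748 barcodes and 7740230 to 56510134 UMIs, the smallest being OS dog 3, and any 2 dogs shared at most 15 barcodes. Cells were clustered and named with the 7 genes and the other genes of the pathway left out, and a name means that a cluster resembled that class. The 6 classes held 42591 T cells, 11030 monocytes, 6380 B cells, 4956 neutrophils, 1481 M-MDSC and 1033 dendritic cells. T cells, monocytes, B cells and neutrophils had at least 25 cells in all 17 dogs, M-MDSC in 16 (not in OS dog 4) and dendritic cells in 12. Healthy dog 7 gave 1708 of the neutrophils. Median UMIs per cell ran from 1724 in neutrophils and 4089 in B cells to 12287 in monocytes and 15006 in dendritic cells, and cells above 20000 UMIs had been left out. Single markers followed the class names, though not every gene of the naming lists did. MS4A1, the B cell antigen CD20, had a median of 256.0 CPM (UMIs of the gene per 1000000 UMIs of the class) in B cells and 0.592 in T cells, CD3E of the T cell receptor complex 933 CPM in T cells, FLT3 412 CPM in dendritic cells, and lysozyme (LYZ) 22492 CPM in monocytes and 17757 in M-MDSC. IL1B was at 1576 CPM in M-MDSC and 266 in monocytes. The granulocyte receptor CSF3R was at 277 CPM in neutrophils, 114 in M-MDSC and 23.5 in monocytes. These markers named the clusters and are no test of them. The 8 genes of the B cell list together separated B cells from T cells poorly. They summed to medians of 10020 CPM in B cells and 8917 in T cells, with overlapping ranges. Of these genes CD79A was higher in T cells (8896 CPM) than in B cells (6426 CPM). Levels below are CPM per dog and class, given as the lowest, median and highest dog, and they compare classes within a gene, not genes with each other.

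DLA-DRA, the alpha chain of the DR molecule, was highest in dendritic cells, and its median CPM fell through B cells, monocytes, M-MDSC and T cells to neutrophils, with B cells and monocytes not called apart in the model below. Dendritic cells held 4998, 7739 and 12226 CPM in the lowest, median and highest of 12 dogs. B cells held 3045, 4614 and 5499 CPM in 17 dogs. Monocytes followed with 2944, 3602 and 5185 CPM. Dendritic cells were above the B cells of the same dog in 12 of 12 dogs, and B cells above monocytes in 14 of 17, although the ranges overlapped. M-MDSC held 691, 1990 and 3777 CPM in 16 dogs. T cells held 909, 1182 and 1374 CPM, and M-MDSC were above the T cells of the same dog in 14 of 16 dogs. Neutrophils held 33.1, 69.1 and 155.7 CPM, so their highest dog was below the lowest T cell value.

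**Figure D1:**
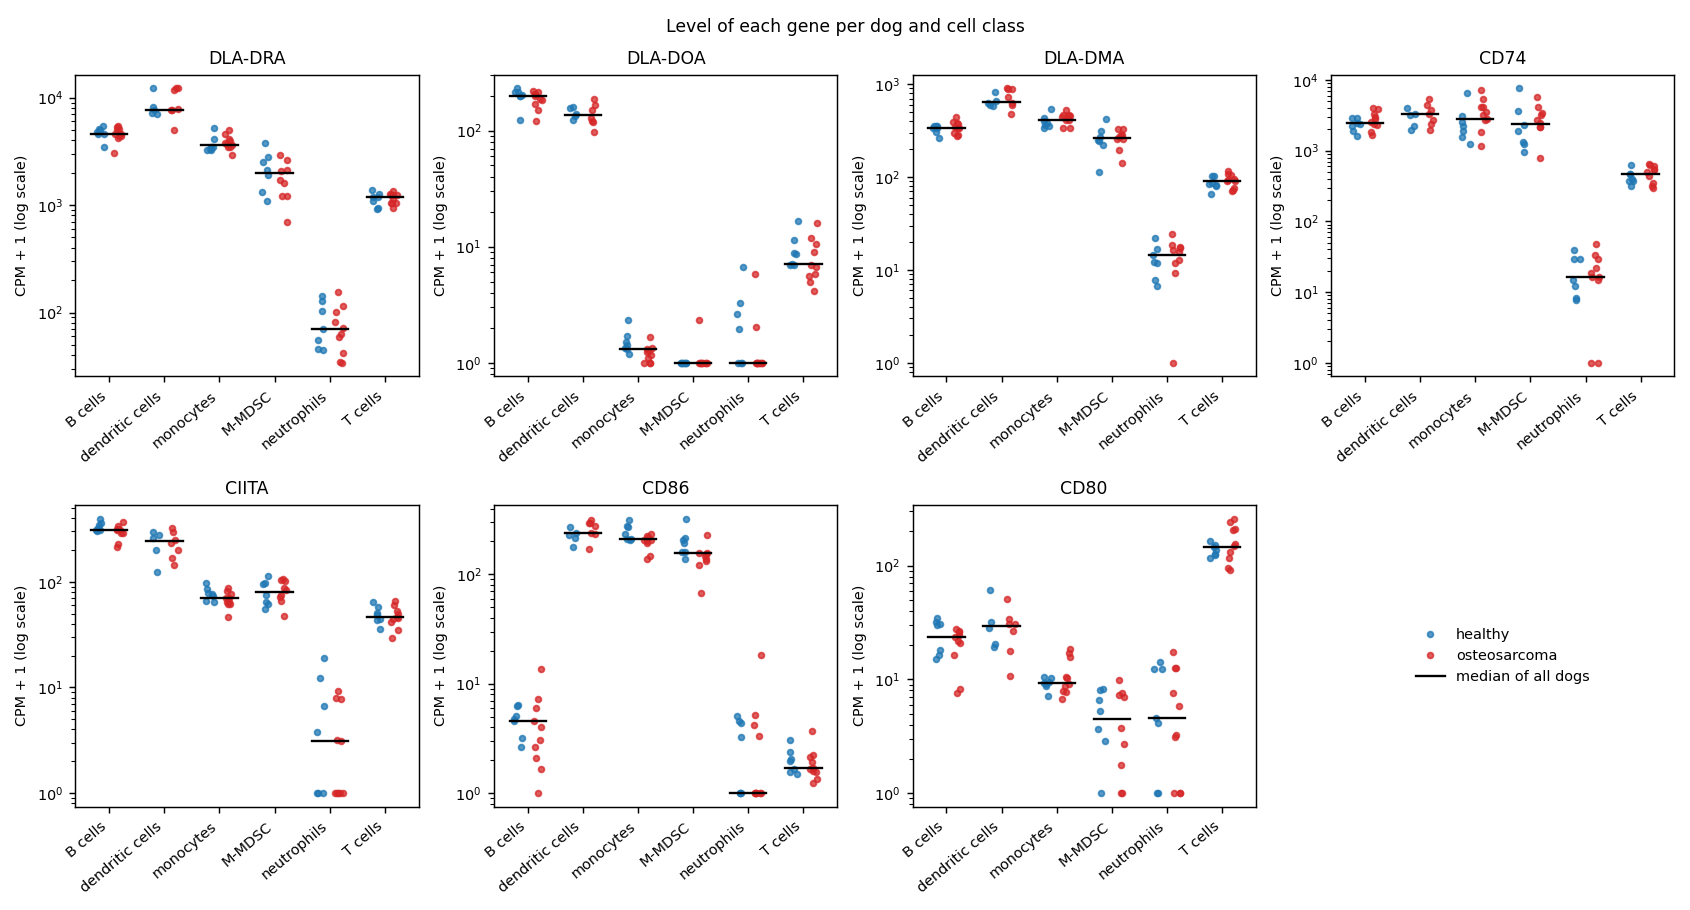
Level of each of the 7 genes (CPM + 1, log scale) in 6 cell classes, with 1 point per dog (blue healthy, red osteosarcoma) and a bar at the median of all dogs. DLA-DRA falls from a median of 7739 CPM in dendritic cells to 69.1 in neutrophils, CD86 is highest in dendritic cells, monocytes and M-MDSC, and CD80 in T cells.

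The peptide exchange and chaperone genes followed a similar order with differences in detail. DLA-DMA was highest in dendritic cells (478, 646 and 903 CPM), followed by monocytes (334, 414 and 543 CPM) and B cells (260, 340 and 441 CPM). It was at 113, 263 and 417 CPM in M-MDSC, 64.8, 90.3 and 114 CPM in T cells and 0, 13.3 and 23.3 CPM in neutrophils. Monocytes exceeded the B cells of the same dog in 16 of 17 dogs. CD74, the invariant chain, had medians of 3247 CPM in dendritic cells, 2833 in monocytes, 2432 in B cells and 2365 in M-MDSC, and these neighbors overlapped, with B cells above M-MDSC in 8 of 16 dogs. T cells held 292, 462 and 651 CPM of CD74 and neutrophils 0, 15.4 and 47.2. CD74 varied widely between dogs. It ran from 1178 to 7097 CPM in monocytes, a 6.02-fold range, and from 788 to 7633 CPM in M-MDSC, a 9.69-fold range, and its range in T cells was 2.23-fold. DLA-DRA in the same monocytes spanned a 1.76-fold range.

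DLA-DOA was highest in B cells and dendritic cells and close to 0 in monocytes. B cells held 120, 199 and 230 CPM and were above dendritic cells (96.9, 134 and 185 CPM) in 12 of 12 dogs. T cells held 3.16, 6.09 and 15.7 CPM, below the whole range of dendritic cells. Monocytes held 0, 0.2997 and 1.33 CPM, 43 UMIs in 11030 cells, and their median was 0.151% of the B cell level of the same dog. The B cell genes MS4A1 and PAX5 were in monocytes at 0.0392% and 0.0747% of their B cell level and CD79B at 0, whereas BANK1, at 40.5%, did not separate the pair of classes. A single DLA-DOA UMI was counted in M-MDSC and 8 in neutrophils, so no level is read from those classes.

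CIITA, the regulator of the class, was highest in B cells, at 213, 309 and 396 CPM, and lay above dendritic cells (123, 240 and 319 CPM) in 11 of 12 dogs. Dendritic cells stood clear of M-MDSC (46.5, 78.4 and 113 CPM), which overlapped with monocytes (45.6, 69.3 and 95.9 CPM) and were the higher of the pair in 10 of 16 dogs. T cells held 28.7, 45.1 and 64.8 CPM and were below monocytes in 16 of 17 dogs. Neutrophils held 0, 2.10 and 18.0 CPM from 34 UMIs, with 8 dogs at 0.

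The co-stimulatory ligands CD86 and CD80 were highest in different classes. CD86 was a gene of dendritic cells (168, 237 and 311 CPM), monocytes (136, 208 and 312 CPM) and M-MDSC (67.1, 156 and 323 CPM). Dendritic cells exceeded monocytes in 8 of 12 dogs and monocytes exceeded M-MDSC in 13 of 16. The B cell range of 0, 3.52 and 12.5 CPM lay wholly below that of M-MDSC, and T cells held 0.244, 0.693 and 2.67 CPM. CD80 was highest in T cells, at 90.7, 144 and 259 CPM, above every value in dendritic cells (9.69, 28.4 and 59.5 CPM). B cells held 6.63, 22.5 and 33.9 CPM of CD80 and monocytes 5.72, 8.30 and 17.4 CPM. Neutrophils and M-MDSC had medians of 3.596 and 3.488 CPM, from 41 and 35 UMIs.

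The classes were then compared in 1 model of the UMIs summed per dog and class, with the dog as a block (edgeR's quasi-likelihood test, Benjamini-Hochberg adjustment over 16071 genes). A gene counts as called at an adjusted p under 0.01 and an absolute log2 fold change over 0.58, which is about 1.5-fold. Fold changes come from library sizes rescaled by TMM and so can differ from a ratio of CPM. Classes of the same blood differ in a large share of all genes, and the counts of the 7 genes are read against that share.

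Between dendritic cells and monocytes, 4 of the 7 genes were called and all were higher in dendritic cells, where 30.4% of all genes were called in either direction. The log2 fold change was 1.03 (SE 0.13, adjusted p = 4.8e-11) for DLA-DRA, 1.42 (SE 0.11, adjusted p = 1.1e-21) for CIITA, 1.44 (SE 0.18) for CD80 and 8.41 (SE 0.19) for DLA-DOA, the last against 43 UMIs in monocytes. DLA-DMA was 0.53 (SE 0.09) higher, which passed the limit on p but not that on the fold change, and it passed both in 8 of 10 alternatives (0.41 to 0.83) and when any 1 of 12 of the 17 dogs was left out. CD74 (0.08, SE 0.13) and CD86 (-0.13, SE 0.11) were not called, and their 95% intervals were -0.18 to 0.34 and -0.34 to 0.08. The median over the 7 genes was 1.03 and that over all genes -0.12.

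B cells set against monocytes gave 6 calls in mixed directions, with 47.9% of all genes called. CIITA (log2 fold change 1.67, SE 0.10, adjusted p = 1.7e-29), DLA-DOA (8.71, SE 0.18) and CD80 (0.83, SE 0.15) were higher in B cells. CD86 (-6.47, SE 0.15), DLA-DMA (-0.76, SE 0.08) and CD74 (-0.64, SE 0.12) were lower. The CD86 level in B cells was 1.45% of that in the monocytes of the same dog. Of the monocyte genes measured there, BPI (0.253%), F13A1 (0.354%) and VCAN (0.423%) were lower, FN1 was at 1.46% and LYZ at 3.30%. LYZ was also higher in B cells than in T cells (706 and 35.2 CPM), and CD86 was so in 16 of 17 dogs. No expression of CD86 is read from its level in B cells, and the source of that level was not tested. The DLA-DRA value of -0.16 (SE 0.12, 95% interval -0.39 to 0.07) was not called and turned to 0.21 with DESeq2's size factors. The DLA-DMA call was lost in 4 of 10 alternatives (to -0.40 with DESeq2's size factors) and the CD74 call in 5 of 10 (to -0.26 with DESeq2, adjusted p = 0.072). The CD74 call was also lost when any of healthy dogs 1, 3, 4, 6 and 7 or OS dogs 2, 7 and 9 was left out.

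Dendritic cells were also above B cells in most of the list. Of the 7 genes 5 were lower in B cells, where 35.8% of all genes were called: DLA-DRA (-1.19, SE 0.13), DLA-DMA (-1.30, SE 0.09), CD74 (-0.72, SE 0.13), CD86 (-6.34, SE 0.16) and CD80 (-0.62, SE 0.18, adjusted p = 0.0031). CIITA (0.25, SE 0.11, adjusted p = 0.041) and DLA-DOA (0.30, SE 0.12, adjusted p = 0.030) were not called. The 95% interval of the CIITA difference ran from 0.04 to 0.47, so it was higher in B cells if at all, beside DLA-DRA and DLA-DMA that were 2.29-fold and 2.46-fold lower there. The CD80 call was lost in 4 of 10 alternatives (to -0.46 with clusters of low ribosomal share left out) and without any of healthy dogs 3, 6 and 7 or OS dogs 2, 7 and 9. The CD74 call was lost in 1 of 10, at -0.57 with doublets kept.

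The study describes its M-MDSC as monocyte-like cells low in class II, and here the 7 genes were kept out of clustering and naming. The list that named the class came from the study's own cluster in these dogs. The study took lower DLA-DRA as part of the support for that cluster, so the values here are no independent test. DLA-DRA in M-MDSC was below that in the monocytes of the same dog in 16 of 16 dogs, with a ratio of 0.235 in the lowest dog, 0.482 in the median dog and 0.848 in the highest. The log2 fold change was -1.13 (SE 0.12, adjusted p = 2.5e-13), which is 2.18-fold lower. DLA-DRA was called in 10 of 10 alternatives, but its size varied, from -3.24 to -0.75. In the alternative with the class II genes in the clustering, DLA-DRA helped to define the class, so that call is no support. DLA-DMA fell in all 16 dogs as well, by 0.84 on the log2 scale (SE 0.09, adjusted p = 7.2e-14). CD80 was the third gene called (-1.41, SE 0.32, adjusted p = 0.00011), from 35 UMIs in M-MDSC, and it was lost with the class II genes in the clustering (-0.94, adjusted p = 0.21). All 3 calls were downward, beside 23.8% of all genes called.

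The other genes of the list were not called. CD86 was lower in 13 of 16 dogs with a log2 fold change of -0.58 (SE 0.10, adjusted p = 1.1e-06), just short of the fold limit, and it was called in 6 of 10 alternatives (-0.51 to -1.41) and when any 1 of 11 of the 17 dogs was left out. CD74 was lower in 10 of 16 dogs at -0.33 (SE 0.12, adjusted p = 0.024) and was not called, and 1 of 10 alternatives called it, at -1.52 with the class II genes in the clustering. CD86 and CD74 then helped to define the class, so any call of them under that alternative is no support. CIITA, which drives the class II genes, was at 0.03 (SE 0.11, adjusted p = 0.85, 95% interval -0.18 to 0.25). DLA-DOA had too few UMIs for a fold. The median over the 7 genes was -0.84 and that over all genes -0.15.

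**Figure D2:**
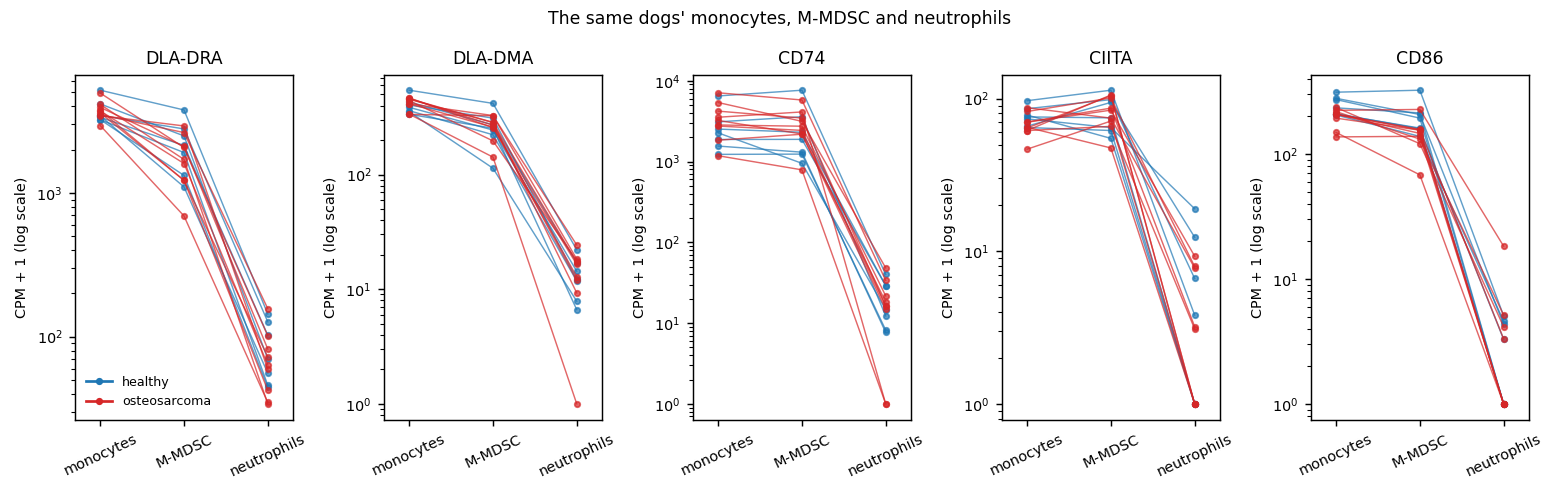
DLA-DRA, DLA-DMA, CD74, CIITA and CD86 (CPM + 1, log scale) in the monocytes, M-MDSC and neutrophils of the 16 dogs with all 3 classes, with 1 line per dog (blue healthy, red osteosarcoma). DLA-DRA falls from monocytes to M-MDSC in all 16 dogs, CIITA rises in 10 of them, and both drop steeply in neutrophils.

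The lower DLA-DRA of M-MDSC came with many cells in which none was counted. No DLA-DRA UMI was found in 438 of 1481 M-MDSC (29.6%, from 11.9 to 52.3% by dog), in 23 of 11030 monocytes (0.209%) and in 87.5% of neutrophils. Since M-MDSC are shallower, with 6178 UMIs per cell at the median, cells with at least 1000 UMIs were also thinned to 1000. Shallower cells were left out, namely 188 T cells, 105 neutrophils and 0 M-MDSC or monocytes. The median dog then had a DLA-DRA UMI in 53.8% of M-MDSC (27.3 to 73.7%), 94.5% of monocytes, 65.0% of T cells and 6.09% of neutrophils. At equal depth, too, the range of M-MDSC lay below that of monocytes (89.5 to 98.0%). Low DLA-DRA was not particular to M-MDSC. Myeloid cluster 5 (1489 cells) could not be named and is not counted among the monocytes. It had medians of 1760 CPM of DLA-DRA and 240 CPM of DLA-DMA, beside 1990 and 263 in M-MDSC. Ribosomal protein genes took 0.467% of its UMIs at the median.

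Markers of neutrophils moved with this result. All 10 genes of the neutrophil list, among them S100A12, CD4 (which canine neutrophils carry) and SERPINA1, were counted in M-MDSC, and the list summed to 13109 to 23255 CPM per dog in M-MDSC, 4212 to 6519 in monocytes and 51310 to 92769 in neutrophils, with no overlap. Over all dogs it was 30138 CPM in M-MDSC without a DLA-DRA UMI and 15614 CPM in those with one, while the 12 genes of the monocyte list were at 22665 and 29134 CPM (21415 to 34029 CPM per dog in M-MDSC, 25364 to 39996 in monocytes). Ribosomal protein genes took a median of 4.71% of the UMIs of M-MDSC, 12.97% of those of monocytes and 1.46% of those of neutrophils. The 10 genes of the M-MDSC list, which named the class, summed to 5872 to 14162 CPM per dog in M-MDSC and 12832 to 30925 CPM in neutrophils, and over all dogs were at 14420 CPM in M-MDSC without a DLA-DRA UMI and 8393 CPM in those with one. The part of neutrophil RNA in the M-MDSC values was not tested. Against myeloid cluster 2, a monocyte cluster that shares their leading gene THBS1, M-MDSC were lower in DLA-DRA in 16 of 16 dogs, with a median ratio of 0.540. The class itself was sensitive to the clustering: with the 7 genes and the pathway genes allowed in, 541 cells took the name, 36.1% of the first set shared, and the median level of DLA-DRA was 295 CPM and that of DLA-DMA 141. With no correction across dogs, 1238 cells took the name, with 59.8% of the first set shared.

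Neutrophils carried almost none of the list. Against monocytes, 6 of the 7 genes were called and all were lower, with 47.9% of all genes called. The log2 fold changes were -5.73 for DLA-DRA (SE 0.16), -5.00 for DLA-DMA (SE 0.14), -7.41 for CD74 (SE 0.19), -4.27 for CIITA (SE 0.22), -6.54 for CD86 (SE 0.21) and -1.02 for CD80 (SE 0.32, adjusted p = 0.0043, lost without healthy dog 6 or 7 and in 3 of 10 alternatives, with an adjusted p of up to 0.027). DLA-DOA, on 8 UMIs in neutrophils and 43 in monocytes, was not called (adjusted p = 0.092), though DESeq2 called it higher in neutrophils (adjusted p = 0.0021). The median over the 7 genes was -5.00 and that over all genes -0.32. DLA-DRA in neutrophils was 1.69% of the monocyte level of the same dog, DLA-DMA 3.00%, CIITA 2.93% and CD74 0.587%. Monocyte genes in the same neutrophils were at 0.598% (FN1), 0.937% (BPI), 3.81% (F13A1), 8.93% (LYZ) and 26.2% (VCAN). CD74 was below all 5 of these markers, and DLA-DRA, DLA-DMA and CIITA were above FN1 and BPI and below the others. F13A1, LYZ and VCAN were themselves higher in neutrophils (20.8, 1806 and 498 CPM) than in T cells (1.41, 35.2 and 7.07 CPM). Lying below them therefore does not show background. Whether neutrophils express DLA-DRA, DLA-DMA or CIITA cannot be told from these markers, and no expression is read from the values.

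T cells carried the class II genes as well. DLA-DRA was 13.7-fold higher in T cells than in neutrophils (log2 3.78, SE 0.15, adjusted p = 2.3e-40), CD74 4.51 higher on the log2 scale (SE 0.19), CIITA 3.42 (SE 0.23), DLA-DMA 2.52 (SE 0.15) and CD80 4.83 (SE 0.24). DLA-DOA was called higher as well, against 8 UMIs in neutrophils, and no fold is read from it. Since no expression is read from the class II values of neutrophils, these folds give only the distance of T cells from those low values. CD86 was the exception, at -1.53 (SE 0.41, adjusted p = 7.1e-04), from 217 UMIs in all T cells and 24 in neutrophils, and the call was lost without healthy dog 7 (adjusted p = 0.049). By CPM, T cells were the higher class in 9 of 17 dogs (medians of 0.693 and 0), so no difference in CD86 is read. The share of all genes called was 54.8%, with a median of 0.51 over all genes and 3.42 over the 7.

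Free RNA from B cells or monocytes can enter any droplet, so each gene was set beside markers of those cells. DLA-DRA in T cells was at 24.7% of the level in the B cells of the same dog (20.3 to 31.1% over 17 dogs), DLA-DMA at 25.6%, CD74 at 17.5% and CIITA at 15.3%. The B cell genes MS4A1, PAX5 and BANK1 were at 0.242%, 0.127% and 0.620% in the same T cells, and CD79B was at 0 in the median dog and at most 3.42%. Monocyte genes in T cells were between 0.156% (LYZ) and 1.32% (FN1) of the monocyte level, and DLA-DRA was at 29.9% of it. All 4 class II genes were thus above each of these markers by more than a factor of 10 at the median. DLA-DOA, at 3.87% of the B cell level, was above every B cell marker used at the median. CD86, at 0.339% of the monocyte level, was within the range of the monocyte markers. No expression of CD86 is read from that level, and its source was not tested. CD79A was not used, since its row was higher in T cells (8896 CPM) than in B cells (6426 CPM). After thinning to 1000 UMIs, the median dog had DLA-DRA in 65.0% of T cells, LYZ in 3.51% and MS4A1 in 0.0345%, while 97.1% of T cells held DLA-DRA at full depth.

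**Figure D3:**
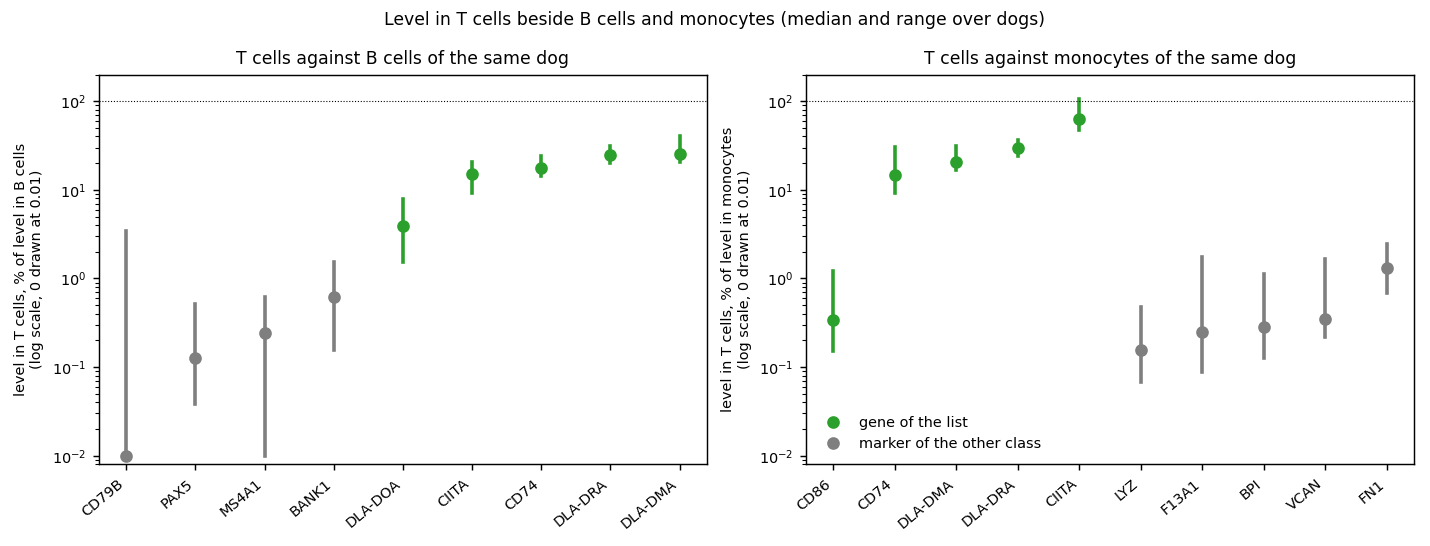
Level in T cells as a percent of the level in B cells (left) and monocytes (right) of the same dog, on a log scale, with the median (point) and the range over dogs (line) for the genes of the list (green) and for markers of the other class (grey). DLA-DRA is at 24.7% of B cells and 29.9% of monocytes, whereas the markers have medians of at most 1.32%.

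T cell RNA in the other classes was measured the same way, beside CD80. CD3E in the 5 other classes was at 0.1999 to 0.570% of the T cell level at the median. CD80 was at 17.8% in dendritic cells, 13.1% in B cells, 6.30% in monocytes, 2.73% in M-MDSC and 2.50% in neutrophils, each above CD3E in the same class. CD3E is 1 gene of the T cell list. The 10 genes of that list summed to medians of 3977 CPM in T cells, 269 in B cells and 71.1 in dendritic cells. They summed to 36.7 CPM in neutrophils, 28.4 in monocytes and 15.3 in M-MDSC. In B cells and dendritic cells the list was thus a larger part of its T cell level than CD3E was. The source of CD80 there was not tested.

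The classes were not uniform inside, and the next values describe subsets and clusters, with no test. Among dendritic cells, cells resembling conventional type 2 cells (cDC2, 473 cells in the 9 dogs with enough) held 9690, 11495 and 14492 CPM of DLA-DRA, with medians of 871 CPM of DLA-DMA and 292 CPM of CIITA. Plasmacytoid-like cells, known for interferon production rather than presentation, held a median of 1255 CPM of DLA-DRA and 33.3 CPM of CIITA in 2 dogs, and no CD80 UMI. Cells resembling the subset the study names pre-DC held 3827 CPM of DLA-DRA in 2 dogs.

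Plasma cells, which are known to silence CIITA as they leave the B cell program, were compared with the B cells of the same 10 dogs. CIITA had a median of 2.37 CPM against 309, a ratio of 0.00787, and DLA-DRA 560 CPM against 4716, a ratio of 0.117. CD74 (ratio 0.105) and DLA-DMA (0.0495) were lower in 10 of 10 dogs as well, and DLA-DOA was counted 9 times in plasma cells. CD80 was at 39.2 CPM against 21.6, higher in plasma cells in 9 of 10 dogs. CD86 was at trace levels in both, 6.89 and 3.29 CPM, and no difference is read from it.

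Monocytes with an interferon signature, named from genes such as RSAD2 and OAS1, differed from other monocytes in CD86. The median was 291 CPM against 204, higher in 10 of 10 dogs with ratios from 1.08 to 1.58. DLA-DRA had a median ratio of 1.02 and was higher in 6 of 10 dogs, and CIITA was lower in 8 of 10 (0.866). Both subsets came from the same libraries.

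T cell subsets differed in level from gene to gene. Effector CD8 T cells and CD4 T cells had medians of 1178 and 1110 CPM of DLA-DRA, whereas DLA-DMA was at 123 and 75.6 CPM and higher in effector CD8 T cells in 17 of 17 dogs, with a median ratio of 1.66. CD80 was higher in CD4 T cells, at 188 CPM against 128, in 14 of 17 dogs, and so was CD74 (513 against 393 CPM, 14 of 17). T cells lacking CD4 and CD8 (DN T cells) had 38.6 CPM of DLA-DOA against 4.58 in CD4 T cells, higher in 13 of 13 dogs by a median of 8.60-fold. They were also higher in DLA-DRA in 13 of 13 dogs (ratio 1.27) and lower in CD80 in 13 of 13 (0.688). The CD4 T cells in these ratios were T clusters 2, 7, 8 and 10, which differed in DLA-DRA, with medians of 1075, 1359, 357 and 1194 CPM. T cluster 8, the lowest, had few ribosomal protein UMIs (0.836%), and T cluster 7 was close to the median of 1383 CPM in DN T cells. The ratios without T cluster 8 were not computed. The CD4 T cells here leave out 20479 cells named other T cells, whose clusters ran from 9.28 (T cluster 5) to 247 CPM (T cluster 9) of CD80. Among them T cluster 0 (8147 cells) had a median of 39.4 CPM. Its leading genes ZNF536 and COL6A5 are listed by the study for naive CD4 T cells. Gamma-delta-like T cells held medians of 44.6 CPM of DLA-DOA and 26.8 CPM of CD80 in 5 dogs, and NK cells 525 CPM of DLA-DRA and 21.04 CPM of CIITA in 4 dogs.

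T cluster 5, whose leading genes were STBD1, PTPRK, NCAM1 and DLA-DOA itself, held 18.7, 39.7 and 59.8 CPM of DLA-DOA and 1.09, 9.28 and 37.3 CPM of CD80. Against T cluster 0 of the same dogs, DLA-DOA was higher in 17 of 17 (8.67-fold at the median) and CD80 lower in 17 of 17 (ratio 0.179). T clusters 9, 6, 10 and 3 had the highest CD80, with medians of 247, 247, 231 and 226 CPM. CD80 also singled out B cluster 9, whose leading genes were RSPO2, TXLNB and CD80 itself, with 106, 122 and 136 CPM in 3 dogs against a median of 6.33 CPM in B cluster 1, where CIITA was the higher (376 against 183 CPM).

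**Figure D4:**
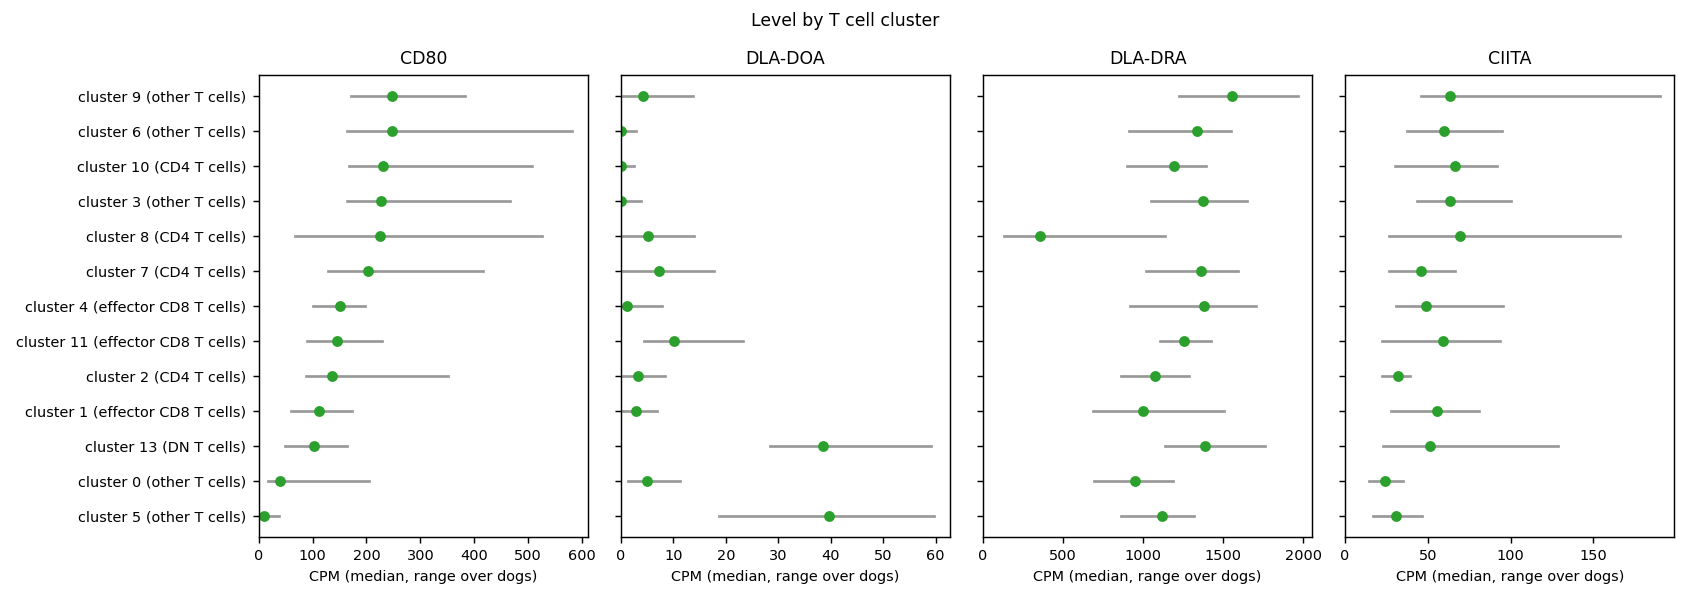
CD80, DLA-DOA, DLA-DRA and CIITA (CPM) in the T cell clusters present in at least 10 dogs, ordered by CD80, with the median (point) and the range over dogs (line). T cluster 5 has 39.7 CPM of DLA-DOA and 9.28 CPM of CD80 at the median, and the clusters of highest CD80 reach 247 CPM.

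Of 7 clusters with a median under 1% of UMIs in ribosomal protein genes, the 3 of most cells had lower DLA-DRA beside higher CIITA than another cluster of their lineage. They were B cluster 3 (0.626%), T cluster 8 (0.836%) and myeloid cluster 5 (0.467%), which could not be named. T cluster 8 against T cluster 2 was lower in DLA-DRA (357 against 1075 CPM) and higher in CIITA (69.6 against 32.2 CPM), each in 17 of 17 dogs. The other clusters of CD4 T cells, T clusters 10 and 7, had CIITA medians of 66.4 and 45.8 CPM. The difference in CIITA thus depends on the cluster set beside T cluster 8. B cluster 3 against B cluster 1 was lower in DLA-DRA (1548 against 5097 CPM) and higher in CIITA (504 against 387 CPM), each in 9 of 10 dogs. Myeloid cluster 5 against myeloid cluster 1 was lower in DLA-DRA in 17 of 17 dogs (1760 against 3912 CPM) and higher in CIITA in 16 of 17 (128 against 60.8 CPM). The other 4 were smaller. T cluster 16 (0.583%) held medians of 298 CPM of DLA-DRA and 115 CPM of CIITA in 7 dogs, but CIITA was at 10.3 CPM in myeloid cluster 14 (0.637%, 3 dogs) and listed at 0 in myeloid cluster 19 (0.703%, 1 dog), and myeloid cluster 21 (0.242%) had too few cells in any dog. The part of RNA quality in these values was not tested. Such clusters took from 4.67 to 45.5% of the B cells of a dog and from 3.07 to 13.2% of the T cells. The lowest DLA-DRA values of B cells were those of OS dog 3 (3045 CPM) and healthy dog 2 (3452 CPM), where they made up 20.3 and 45.5% of B cells. Without them these dogs were at 3424 and 3432 CPM.

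The comparison of dogs with OS and healthy dogs asked whether disease moves the class II genes within a class. No gene was called in any of the 6 classes with edgeR's quasi-likelihood test (0% of the genes tested in each), and so none of the list. Genes at an unadjusted p under 0.05 numbered 606 of 12426 in B cells, 414 of 11144 in dendritic cells and 867 of 13752 in monocytes. They numbered 634 of 10106 in M-MDSC, 451 of 9738 in neutrophils and 508 of 15171 in T cells. Chance alone gives a share of about 0.05, which only monocytes and M-MDSC exceeded. DESeq2 called 1 gene in dendritic cells, 3 in monocytes and 0 in the other classes, none from the list. The healthy and OS ranges overlapped for each of the 7 genes in every class.

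DLA-DRA had medians of 4817 CPM in the B cells of healthy dogs (3452 to 5413) and 4545 in those of dogs with OS (3045 to 5499), a log2 fold change of -0.02 (SE 0.15). In monocytes it was at 3436 CPM (3232 to 5185) and 3734 CPM (2944 to 4952), a log2 fold change of 0.09 (SE 0.14). In M-MDSC the medians were 2139 CPM (1101 to 3777) in 7 healthy dogs and 1710 CPM (691 to 2924) in 9 dogs with OS, and the log2 fold change was -0.27 (SE 0.27, 95% interval -0.80 to 0.26). It was called under none of 12 alternatives but ran from -1.48, with the class II genes in the clustering, to 0.51, with no correction across dogs. The study reports subtle differences within its own M-MDSC cluster, among them lower DLA-DRA in dogs with OS. It compared cells by a Wilcoxon test, whereas dogs are the replicates here, and the clusters are not the same. T cells were at 1182 CPM (909 to 1374) and 1188 CPM (946 to 1350), with all 10 OS dogs inside the healthy range. The intervals for B cells, monocytes and T cells were -0.31 to 0.28, -0.19 to 0.37 and -0.21 to 0.33, so changes of 1.5-fold or more in DLA-DRA lay outside them.

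CD86 had the smallest p-values among well counted genes. In M-MDSC the healthy dogs were at 137 to 323 CPM (median 193) and the dogs with OS at 67.1 to 227 (median 145), with 6 of 9 OS dogs inside the healthy range. The log2 fold change was -0.42 (SE 0.20, unadjusted p = 0.046, adjusted p = 0.79). It ran from -0.52 to -0.26 with 1 dog left out and from -0.49 to -0.11 over 12 alternatives. In monocytes the healthy dogs were at 204 to 312 CPM (median 233) and the dogs with OS at 136 to 235 (median 207), with a log2 fold change of -0.26 (SE 0.13, unadjusted p = 0.056, adjusted p = 0.80). Neither passed the correction over all genes. DLA-DOA in monocytes was at -1.35 (SE 0.53, unadjusted p = 0.020, adjusted p = 0.73) on 43 UMIs. CD74 in monocytes was at 0.44 (SE 0.34), with a 95% interval of -0.23 to 1.12, and at 0.85 without healthy dog 1 (0.31 to 0.56 without any other dog). CD80 in T cells was at 0.28 (SE 0.17), where the healthy dogs held 117 to 163 CPM and those with OS 90.7 to 259. DLA-DMA had log2 fold changes of 0.02 to 0.16 over the 6 classes, and CIITA of -0.16 to 0.07 in 5 of them and -0.64 (SE 0.71) in neutrophils, on 34 UMIs.

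**Figure D5:**
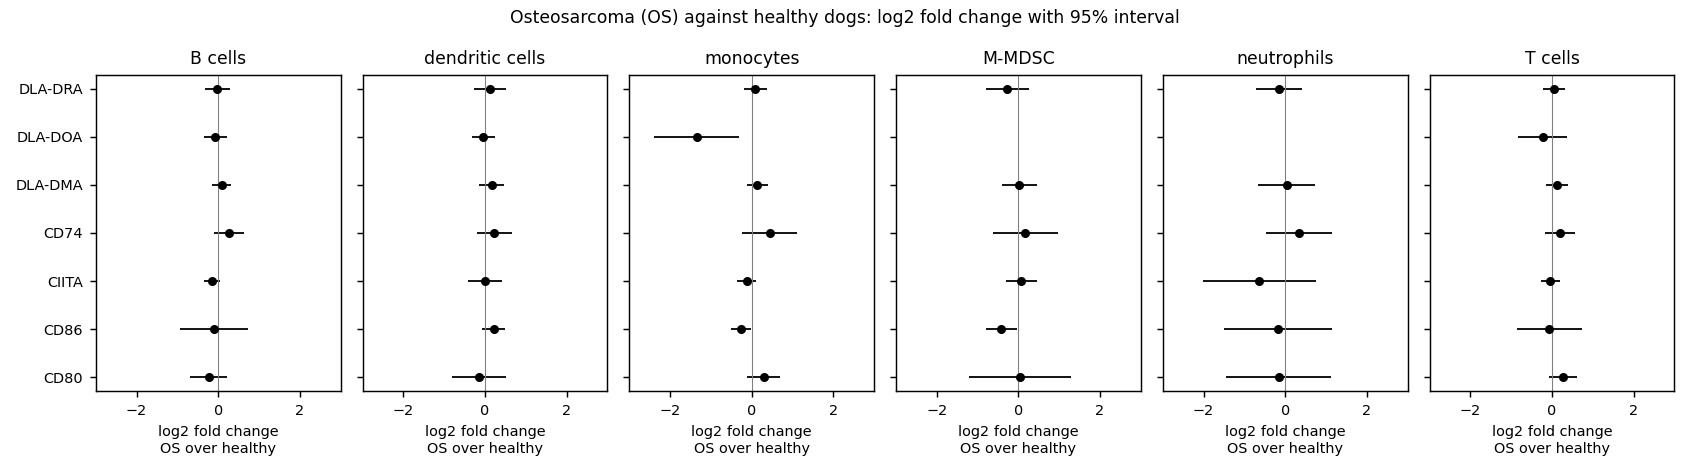
Log2 fold change of dogs with osteosarcoma over healthy dogs for each gene in 6 cell classes, with 95% intervals (edgeR). No gene is past the thresholds, and the intervals of DLA-DRA in B cells, monocytes and T cells stay within -0.31 to 0.37.

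Whether OS moved M-MDSC differently from monocytes was tested as an interaction in the 16 dogs with both. No gene was called by edgeR (0% of 13866 genes, 664 at an unadjusted p under 0.05) or by DESeq2. DLA-DRA was at -0.30 (SE 0.17, unadjusted p = 0.076, 95% interval -0.63 to 0.02), CD86 at -0.15 (SE 0.14) and CIITA at 0.22 (SE 0.18). CD74 was at -0.06 (SE 0.14), DLA-DMA at -0.07 (SE 0.15) and CD80 at -0.14 (SE 0.59), and DLA-DOA had too few UMIs for a value. DLA-DRA was called, at -1.54 (adjusted p = 6.8e-06), when the class II genes were allowed into the clustering and M-MDSC shrank to 541 cells, and it was at 0.36 and not called with no correction across dogs.

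Of 35 other genes of the pathway, 25 had a row. Rows for DQ chains were DLA-DQA1, HLA-DQB2 and HLA-DQB1, the last at 0 to 1.98 CPM at the median in every class. DLA-DQA1 had medians of 886 CPM in dendritic cells, 438 in B cells, 373 in monocytes, 86.4 in T cells, 67.6 in M-MDSC and 4.57 in neutrophils. HLA-DQB2 had medians of 2618, 1448, 1027, 510, 296 and 22.5 CPM in the same order. In DLA-DQA1 and HLA-DQB2, T cells lay above M-MDSC, which they did not in DLA-DRA.

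In M-MDSC against monocytes, 7 of the 25 were lower and 1 higher (median -0.16 over the 25), where 23.8% of all genes were called. DLA-DQA1 fell by 2.45 on the log2 scale and HLA-DQB2 by 1.70, with the lysosomal thiol reductase IFI30 (-1.66), the protease LGMN (-1.14), the class II promoter factors RFXANK (-0.95) and RFXAP (-0.97) and CD40 (-5.67, with 0 CPM at the median in M-MDSC). CD28 was called higher (1.964, SE 0.38) at trace levels, with medians of 1.23 CPM in M-MDSC and 0.593 in monocytes against 90.7 in T cells. In dendritic cells against monocytes, 3 rose and 11 fell (median -0.50), beside 30.4% of all genes called. DLA-DQA1 (0.99), HLA-DQB2 (1.33) and IFI30 (1.87) rose, and cathepsins CTSS, CTSB, CTSD and CTSH and the maturation marker CD83 (-2.70) were among those that fell. In B cells against monocytes, 4 rose, the promoter factors RFX5, NFYC and CREB1 and CD40 (1.66), and 10 fell, with CTSS, the protease that trims the invariant chain, at -3.94 (median -0.31, 47.9% of all genes called).

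Against dendritic cells, B cells were higher in 5 and lower in 10 of the 25 (median -0.44, 35.8% of all genes called), with DLA-DQA1 at -1.19 and HLA-DQB2 at -1.21. In neutrophils against monocytes, 3 rose and 13 fell (median -0.67, 47.9% of all genes called), with DLA-DQA1 at -6.38 and HLA-DQB2 at -5.36. CTSB rose (1.48). In T cells against neutrophils, 8 rose and 9 fell (median -0.23, 54.8% of all genes called). DLA-DQA1 rose by 4.07, HLA-DQB2 by 4.26 and the receptors of CD80 and CD86, CD28 and CTLA4, by 7.15 and 5.63. MARCHF1, the ubiquitin ligase that sends class II and CD86 for degradation, was at -6.99, with medians of 6.75 CPM in T cells, 931 in neutrophils, 1030 in monocytes and 1677 in M-MDSC. In dogs with OS against healthy dogs, 0 of the pathway genes tested were called in each class.

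Likeness to the list was described over 203 sums of 19 subsets and dogs for 10142 genes, as Pearson's r of log2(CPM + 1), with dogs shared between sums and no test. The genes most like DLA-DRA outside the list were DLA-DQA1 (0.92), HLA-DQB2 (0.92), the lysosomal protease CTSC (0.87), PDE8A (0.85) and EIF3M (0.85), beside CD74 (0.93), DLA-DMA (0.90) and CIITA (0.83) within it. Those most like CIITA were DLA-DQA1 (0.82), HLA-DQB2 (0.82), PARP15 (0.79), INPP5F (0.77) and ZBTB25 (0.77). CD86 had another company, with EPB41L3 (0.92), DOCK1 (0.92), the DNA sensor adaptor STING1 (0.91), MPEG1 (0.91) and INSYN2A (0.91), and its r with DLA-DRA was 0.57 and with CD80 -0.30.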

How the data were processed

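The authors deposited 1 matrix of raw counts for each of 17 dogs, with unique molecular identifiers (UMIs) counted by gene and barcode. Per the labels and the paper, reads were counted with Cell Ranger 7.0.0 on CanFam3.1, once including introns and once excluding them, and the sources used here do not say which version the matrices hold. Limits on cells were 200 to 4500 genes, 500 to 20000 UMIs and a mitochondrial share under 10%. The highest doublet scores of each dog were removed at an expected rate of 0.8% per 1000 barcodes. Clustering used 2000 variable genes, 30 principal components corrected across dogs by soft k-means, 20 neighbors and the Leiden method (leidenalg 0.10.2) at a resolution of 1.0. The listed genes, other pathway genes, ribosomal and mitochondrial genes were held out. Clusters were named from marker lists, most of them chosen by the authors on these dogs, with thresholds set after the clusters had been seen. The genes and lists followed here were chosen with earlier results of these data known. The rule for named genes took the 7 genes with a row, each named in every comparison between classes.

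UMIs were summed per dog and class with at least 25 cells and tested with edgeR 4.0.16 (R 4.3.3, quasi-likelihood test, TMM) for genes with at least 10 counts. All p-values were adjusted over all genes tested. DESeq2 1.42.0, other scalings, filters and clusterings, age, a block by replicate number, each dog left out and, chosen after seeing the data, clusters of low ribosomal share left out were alternatives. The test procedures were tested on simulated data. Depth differed between classes (medians of 1724 to 15006 UMIs per cell), so shares of cells were compared after thinning to 1000 UMIs. Cells with fewer UMIs were left out of these shares. PCR copies are collapsed by the identifiers, and shares cover counting error only. The labels name no batch. No sequence table or genome was used.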

Additional observations from a re-analysis of the deposited data

Results flagged for a closer look

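Among 83 groups of 4 to 10 dogs, a value stood apart from its group in 14, where chance gives about 1 in 20 for normally spread values. That rate does not hold for groups mostly at 0 CPM, such as DLA-DOA in the M-MDSC of dogs with OS. The 14 are therefore not read as an excess. In B cells, DLA-DRA was at 3452 CPM in healthy dog 2 (next dog 4586) and at 3045 CPM in OS dog 3 (next 4245), and DLA-DOA at 122 CPM in healthy dog 2 (next 195). In these dogs clusters of low ribosomal share took 45.5 and 20.3% of B cells. DLA-DRA in the dendritic cells of healthy dog 7 was at 12209 CPM (next 8245), from 61 cells. CD74 in healthy dog 1 was at 6481 CPM in monocytes (next 3097) and at 7633 CPM in M-MDSC (next 3582), on 48663 and 5717 UMIs, so the same dog stood apart in both classes. CD86 in M-MDSC was at 323 CPM in healthy dog 7 (next 212), from 57 cells.

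The other values rest on few UMIs. OS dog 5 was highest in CD86 in B cells (12.5 CPM, 4 UMIs), neutrophils (17.3 CPM, 3 UMIs) and T cells (2.67 CPM, 25 UMIs). No expression of CD86 is read in these classes. DLA-DOA was at 0.665 CPM in the monocytes of OS dog 4 (2 UMIs), 1.32 CPM in the M-MDSC of OS dog 7, 5.61 CPM in the neutrophils of healthy dog 4 and 4.79 CPM in those of OS dog 4, the last 3 on 1 UMI each. Without healthy dog 1, 2 or 7 or OS dog 3, 4, 5 or 7, each left out in turn, 0 of the 7 genes were called for OS in any class.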

How the results depend on the processing

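No result of the list changed direction with its call. Between dogs with OS and healthy dogs, all 1152 alternative values of 40 results stayed uncalled, and 76 of them, in 21 results, had another sign. Counts over all genes went from 0 to 1 in dendritic cells with DESeq2, with no filter on low counts and with the replicate block, to 3 in monocytes with DESeq2, and with the block to 1 in M-MDSC and 18 in neutrophils. Leaving out a dog gave 0 to 1 genes in dendritic cells (1 without healthy dog 4 or OS dog 4). The interaction gave 3 genes with no filter, 2 with no correction across dogs, 6 (1 of the list, DLA-DRA) with the listed genes in the clustering, and 0 to 1 without a dog (1 without OS dog 6). The causes were not tested. Same-numbered dogs of the groups shared only a number: their deviations correlated between -0.46 and 0.59.

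Between classes, 1060 of 1134 alternative values kept their side of the thresholds, 35 lost a call and 39 gained one. With doublets kept, 3 genes of the list were lower in B cells than in dendritic cells, in place of 5. DESeq2's size factors moved the median log2 fold change over all genes from -0.12 to 0.15 for dendritic cells against monocytes (47.0 to 65.2% of calls higher), from -0.02 to 0.31 for B cells against monocytes (47.9 to 63.5%) and from 0.51 to 0.72 for T cells against neutrophils (61.9 to 68.1%). The counts of neutrophils limit the listed genes there to between 8 (DLA-DOA) and 677 (DLA-DRA) UMIs.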

Other observations

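Other leukocytes described by the same 7 genes were low in class II. Eosinophils and basophils had a median of 114 CPM of DLA-DRA in 15 dogs, and cells resembling granulocytic suppressor cells (PMN-MDSC) 46.6 CPM in 5 dogs. After thinning to 1000 UMIs, DLA-DRA was found in 10.5% of eosinophils and basophils, 4.76% of PMN-MDSC and 36.2% of NK cells at the median, where neutrophils had 6.09%. The share of eosinophils and basophils covers 1726 cells in 13 dogs, since 603 cells were too shallow to thin. Neutrophils with an interferon signature had 5.23% in 4 dogs.

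CD86 and CD80 also differed in the unnamed myeloid cluster of low ribosomal share (myeloid cluster 5): CD86 was at 254 CPM against 202 in myeloid cluster 1, higher in 15 of 17 dogs, and CD80 at 11.9 against 7.76 CPM, higher in 16 of 17. DLA-DOA was listed among the leading genes of the cDC2 cluster although it was held out of clustering.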
